A study of Pan troglodytes with 6 samples.

Results

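The genes described here are those named as cyclins, cyclin-dependent kinases (CDKs), cell division cycle (CDC) genes, minichromosome maintenance (MCM) and origin recognition (ORC) subunits, E2F factors, and Aurora, BUB1 and polo-like kinases, together with the proliferation antigen MKI67. They were chosen by symbol alone, as features of the array annotated with exactly 1 gene symbol of these families, and they number 108 of 12584 named genes and 15143 features in all. A further 16 features carried several symbols that included such a name and were not used, which leaves out PCNA, MCM7, CDK4, CDK9 and BUB1B. Cerebellum and liver RNA of adult chimpanzees (Pan troglodytes) was profiled on a human exon array, with 3 cerebellum and 3 liver arrays. By the labels, replicate 1 came from a female aged 27 years, while replicates 2 and 3 came from males aged 37 and 30 years, in cerebellum as in liver, and the labels name no treatment in either tissue.

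Cyclins are the regulatory partners that switch CDKs on, and successive cyclin-CDK pairs drive a cell through G1, DNA replication and mitosis, while CDK inhibitors hold it back. Replication origins are marked by the ORC complex and loaded with the MCM helicase, and many of the genes involved are turned on by E2F factors when a cell commits to divide. Most neurons of the adult cerebellum have left the cycle for good, and adult hepatocytes rest but can re-enter it after injury. Several genes of these families are also known for work outside the cycle: CDK5 acts in neurons, other CDKs act on RNA polymerase II, and CDC42 shapes the cytoskeleton.

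The values are background-subtracted intensities on a linear scale, with the same distribution on all 6 arrays and a median of 96.3. Tissue differences are cerebellum minus liver on the scale log2(intensity + 16.8), tested with limma over all features, and a gene is called where the Benjamini-Hochberg adjusted p is under 0.05. Arrays correlated with r of 0.947 to 0.977 within cerebellum, 0.906 to 0.950 within liver and 0.445 to 0.507 between the tissues, over features, which are not independent replicates. The tissue labels went with their markers: all 10 measured cerebellum markers were higher in cerebellum and all 7 measured liver markers were higher in liver. In whole tissue, fewer cells of a type and less RNA per cell cannot be told apart. No detection call was available, so genes that a tissue is not known to express served as a guide to the reading of a silent gene. The 90th percentile of intensity was 43.3 for 21 hepatocyte genes on the cerebellum arrays and 52.8 for 19 synaptic and neuronal genes on the liver arrays. The highest single readings of these genes were 318 and 144. Probes differ in background, so these levels are a guide and not a limit.

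Of the 108 genes, 25 passed toward cerebellum, 16 passed toward liver and 67 were not called. The called share was 37.96%, where 50.6% of all features were called (26.7% higher in cerebellum and 23.9% higher in liver). The counts by role below are to be read beside these shares, and the role groups hold only 6 to 18 genes each. With a difference of at least 2-fold as well, 17 and 11 genes passed, beside 17.2% and 15.8% of all features. The cerebellum values all lay above the liver values for 32 genes and all below for 23, against 30.9% and 28.4% of all features. The median log2 difference was -0.01 for these genes and 0.04 for all features, and the range was -3.50 to 3.56. When the null was a difference of up to 2-fold (limma's treat), 9 genes were higher in cerebellum (CDK5R1, CDKL2, CDK14, CDK16, CDK19, CDC42, CDC42BPA, CCNG2 and CDC25B) and 8 were higher in liver (CDKN1A, CCND1, CDK2, CDK6, PLK2, CDC14B, CDC42EP1 and CDK2AP2). The other 24 calls below did not pass that test. With values floored at 16.8 in place of the added constant, the differences of CDKN1A, CDC42EP1, CDK5R1, PLK2 and CDK2 became -4.30, -3.49, 4.25, -3.10 and -2.63, more than 1.5 times larger as folds than the values below. In 6 calls toward cerebellum and 9 toward liver, every reading of the lower tissue was at or below the levels of silent genes, so that the size of the difference rests on background and on the added constant. These were the liver readings of CDK5R1, CDKL2, CDKL3, MCM8, CCNB1 and ORC6, and the cerebellum readings of CDKN1A, CCND1, CDK2, PLK2, E2F3, CDC42EP1, CDC42EP3, CDK2AP2 and BUB1.

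**Figure D1:**
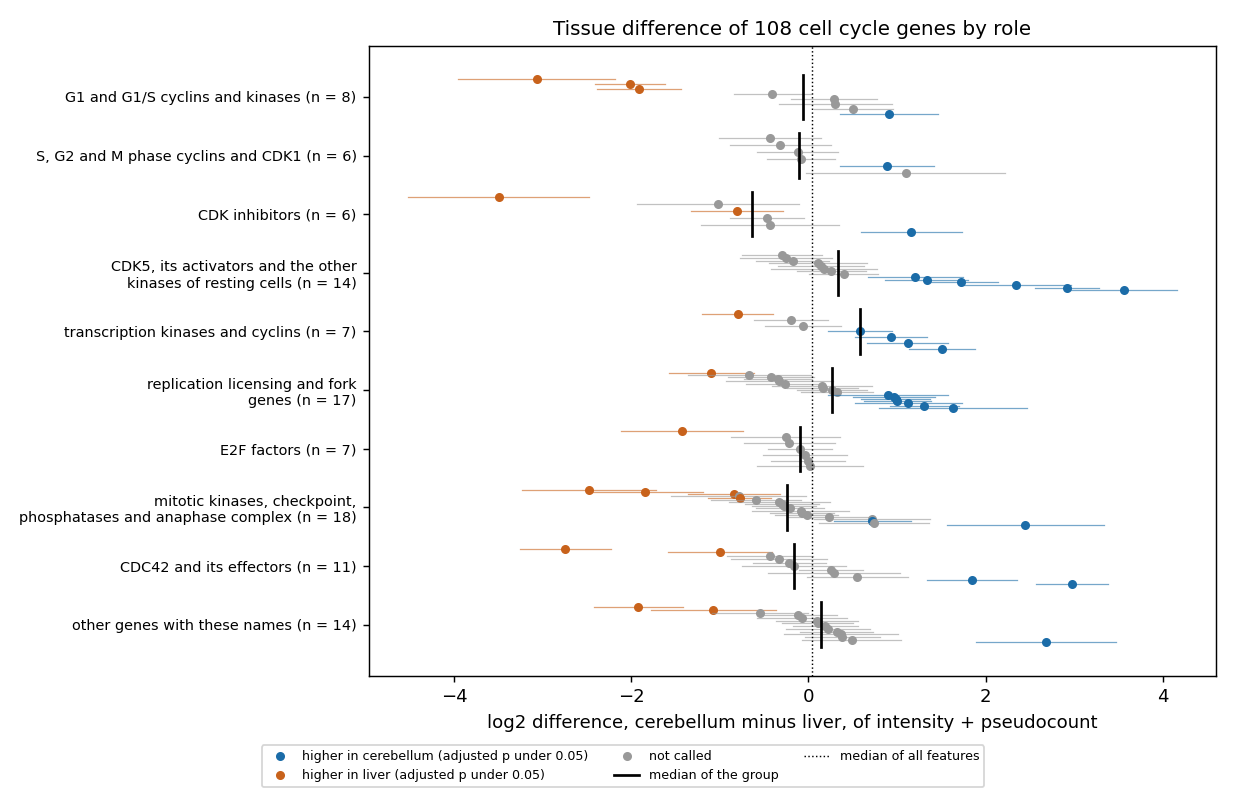
Each point is 1 of the 108 genes, placed by its log2 difference (cerebellum minus liver) on the horizontal axis and grouped by role down the page, with its 95% confidence interval from limma as a line. Blue points were higher in cerebellum, orange points were higher in liver and grey points were not called. The group of CDK5, its activators and the kinases of resting cells has 6 blue and 0 orange points. The point furthest toward liver is CDKN1A among the inhibitors, at -3.50, followed by CCND1 in the G1 group, at -3.07.

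Among the cyclins and kinases of G1 and the G1/S step, 1 of 8 genes was higher in cerebellum, 3 were higher in liver and 4 were not called. The D cyclins, which pair with CDK4 and CDK6 to start G1, parted by tissue. CCND1 (cyclin D1) read 28.7, 41.1 and 29.7 in cerebellum and 193, 640 and 504 in liver. All 3 livers lay above all 3 cerebellums, with replicate 1 the lowest of the livers, and the log2 difference was -3.07 ± 0.39 (standard error, here and below; limma, adjusted p = 2.41e-04). CCND2 (cyclin D2) went the other way, at 118, 188 and 122 in cerebellum and 52.8, 61.4 and 90.3 in liver, a difference of 0.91 ± 0.24 (limma, adjusted p = 0.0127). CCND3 (cyclin D3) stood at 71.7 ± 13.9 in cerebellum and 100.1 ± 12.6 in liver (mean ± SD, n = 3 per tissue) and was not called, with a 95% interval of the difference from -0.84 to 0.02.

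CDK2, the partner of cyclins E and A at the start of replication, read 22.0, 26.4 and 23.2 in cerebellum, against 123, 162 and 158 in liver. Its groups were narrow and far apart, and the difference was -2.01 ± 0.17 (limma, adjusted p = 2.45e-05). CDK6, a partner of the D cyclins, read 46.2, 26.6 and 26.4 in cerebellum, against 189, 171 and 146 in liver, and differed by -1.91 ± 0.21 (limma, adjusted p = 9.92e-05). Across both kinases 5 of the 6 cerebellum readings were below 43.3, the 90th percentile of hepatocyte genes there. The E cyclins, which activate CDK2, were not called. CCNE1 was at 59.3 ± 16.3 in cerebellum and 45.0 ± 8.39 in liver, with an interval of the difference from -0.20 to 0.77. CCNE2 was at 25.2 ± 6.10 and 12.8 ± 4.27, with a difference of 0.51 (limma, adjusted p = 0.0585). Its tissues did not overlap, and it passed at a pseudocount of 11.1 (adjusted p = 0.0473), with an intensity trend in the variance (adjusted p = 0.0477) and with arrays aligned on general genes (adjusted p = 0.0206).

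The CDK inhibitors were split. Of 6 measured, 1 was higher in cerebellum, 2 were higher in liver and 3 were not called, with a median difference of -0.64 beside 0.04 for all features. CDKN1A (p21), which p53 induces, was higher in liver. Its readings were 17.0, 25.1 and 14.4 in cerebellum, against 289, 215 and 879 in liver, and the difference was -3.50 ± 0.45 (limma, adjusted p = 2.57e-04), a size that is not exact because all 3 cerebellum readings lay under 43.3. Liver replicate 3 was the high one, and without it the difference was -2.91 (limma, adjusted p = 2.76e-05). CDKN1B (p27), an inhibitor that neurons keep after they stop dividing, read 260, 454 and 319 in cerebellum and 155, 166 and 108 in liver. The tissues did not overlap, and the difference was 1.16 ± 0.25 (limma, adjusted p = 0.00438). The paralogues p21 and p27 were called in opposite directions.

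CDKN2A, which encodes the INK4a and ARF proteins that 1 feature cannot tell apart, was at 41.5 ± 12.6 in cerebellum and 84.7 ± 20.8 in liver, a difference of -0.80 (limma, adjusted p = 0.0175). That call did not hold when cerebellum replicate 1, cerebellum replicate 3 or liver replicate 2 was left out, with adjusted p of 0.0710, 0.0592 and 0.0651. CDKN1C (p57), an imprinted inhibitor, was at 229 ± 35.9 in cerebellum and 322 ± 27.5 in liver with no overlap, a difference of -0.47 that did not pass (limma, adjusted p = 0.0602). CDKN2B, a neighbour of CDKN2A on the chromosome, read 159, 542 and 203 in cerebellum and 562, 645 and 449 in liver. Cerebellum replicate 2 lay within the liver range, and the gene was not called (limma, adjusted p = 0.0621). It passed toward liver without cerebellum replicate 2 and with the replicate number as a block.

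**Figure D2:**
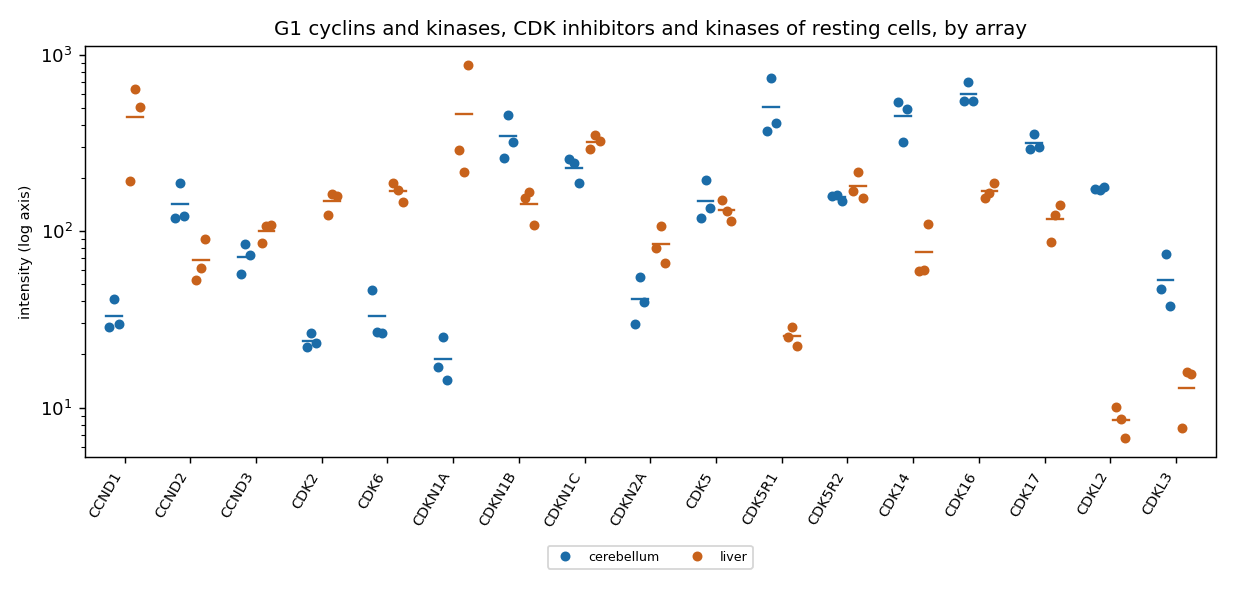
The intensity of 17 genes is plotted on a log axis, with a point for each array, blue for cerebellum and orange for liver, and a bar at each tissue's mean of 3. CCND1, CDK2, CDK6 and CDKN1A lie apart with liver on top, CDK5R1, CDK14, CDK16, CDK17, CDKL2 and CDKL3 lie apart with cerebellum on top, and CDK5 and CDK5R2 overlap.

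CDK5, its activators and binding proteins and the kinases of resting cells had calls toward cerebellum alone. In this group of 14 genes, 9 of them kinases, 6 were higher in cerebellum, 0 were higher in liver and 8 were not called, and all 6 (CDK5R1 and 5 kinases) passed the 2-fold limit. The median difference was 0.33. CDK5R1 encodes p35, the activator that neurons use to switch CDK5 on. It read 369, 734 and 407 in cerebellum, against 25.2, 28.7 and 22.2 in liver, a difference of 3.56 ± 0.26 (limma, adjusted p = 9.43e-06), whose size is likewise not exact, since all 3 liver readings lay under 52.8. CDK5, the kinase itself, overlapped between the tissues, with 118, 194 and 135 in cerebellum and 150, 131 and 114 in liver. Its difference of 0.14 had an interval from -0.35 to 0.63, which excludes a 2-fold difference in either direction on this scale. CDK5R2, which encodes its other activator p39 and is known from neurons, read 158, 161 and 149 in cerebellum and 169, 217 and 153 in liver. This gene was thus no higher in cerebellum than in liver by these readings, with an interval of the difference from -0.59 to 0.24. The CDK5-associated proteins CDK5RAP1, CDK5RAP2 and CDK5RAP3 were not called, at differences of 0.26, 0.17 and 0.11.

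CDKL2, a CDK-like kinase, read 174, 171 and 177 in cerebellum, against 10.04, 8.60 and 6.69 in liver. The readings within each tissue were close together, and the difference was 2.92 ± 0.16 (limma, adjusted p = 1.75e-06). CDKL3 followed at 53.0 ± 19.2 in cerebellum and 13.0 ± 4.58 in liver, a difference of 1.21 (limma, adjusted p = 0.00276), while CDKL1 was not called at 157 ± 14.7 and 198 ± 42.3. CDK14, a membrane-associated kinase that pairs with cyclin Y, read 539, 322 and 495 in cerebellum and 59.6, 60.2 and 109 in liver, a difference of 2.34 ± 0.27 (limma, adjusted p = 1.46e-04). CDK16 and CDK17, 2 members of the PCTAIRE family that resting cells express, differed by 1.73 and 1.33 (limma, adjusted p = 7.73e-05 and 7.66e-04). CDK18, the remaining PCTAIRE kinase, was not called at 90.2 ± 26.6 in cerebellum and 110 ± 21.9 in liver.

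Kinases, a cyclin and an elongation factor subunit that act on transcription made up a group of 7 genes. Of these, 4 were higher in cerebellum, 1 was higher in liver and 2 were not called, with a median of 0.58, and the 5 kinases among them were called 3 times toward cerebellum and 1 time toward liver. CDK8 and CDK19, alternative kinases of the Mediator complex, were both higher in cerebellum. CDK19 read 316, 278 and 300 there and 104, 84.5 and 93.8 in liver (difference 1.51 ± 0.16, limma adjusted p = 9.90e-05), and CDK8 read 284, 258 and 269 against 112, 134 and 158 (0.93 ± 0.18, limma adjusted p = 0.00244). These paralogues are close in sequence, and shared signal between their probes was not tested. CDK13, a kinase of elongating RNA polymerase II, was at 436 ± 65.6 in cerebellum and 192 ± 37.0 in liver, a difference of 1.12. CDK12, another kinase of the same step, had an interval from -0.49 to 0.37 and was not called. CDC73, a subunit of the PAF1 elongation complex, differed by 0.58 (limma, adjusted p = 0.0135). The gene that went to the liver side was CDK10, a partner of cyclin M, at 154 ± 24.2 in cerebellum and 278 ± 13.4 in liver (-0.80 ± 0.18, limma adjusted p = 0.00529).

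Origin recognition and licensing genes were measured with 17 members, of which 7 were higher in cerebellum, 1 was higher in liver and 9 were not called. The median was 0.26. Called genes made up 41.2% toward cerebellum and 5.88% toward liver, beside 26.7% and 23.9% of all features. Within the ORC complex, which binds replication origins, the core subunits ORC2, ORC3 and ORC4 moved by nearly the same amount. ORC2 read 263, 221 and 255 in cerebellum and 132, 109 and 107 in liver. ORC3 read 243, 265 and 210 in cerebellum and 98.9, 148 and 99.1 in liver. ORC4 read 320, 265 and 301 in cerebellum and 127, 149 and 140 in liver. None of the 3 genes overlapped between the tissues, and their differences were 0.99 ± 0.17, 0.97 ± 0.20 and 1.01 ± 0.17 (limma, adjusted p = 0.00140, 0.00396 and 0.00108).

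The remaining ORC subunits did not follow as clearly. ORC5 averaged 166 ± 28.4 in cerebellum and 128 ± 8.44 in liver and was not called (0.33, interval -0.08 to 0.73). ORC1, the subunit that cycling cells regulate, was at 43.1 ± 3.15 and 37.0 ± 7.79 (0.16, interval -0.24 to 0.56). ORC6 was called at 0.90 (limma, adjusted p = 0.0320), but its readings of 63.3, 23.8 and 64.7 in cerebellum and 13.0, 25.4 and 15.8 in liver overlapped through cerebellum replicate 2. Its call did not hold when cerebellum replicate 1, cerebellum replicate 3, liver replicate 1 or liver replicate 3 was left out (adjusted p = 0.114, 0.121, 0.0887 and 0.0696) and with values floored at the pseudocount (adjusted p = 0.0743).

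Subunits of the MCM2 to MCM7 helicase, which unwinds DNA at the fork, went in different directions. MCM6 read 163, 180 and 197 in cerebellum, against 45.8, 71.2 and 114 in liver (1.13 ± 0.27, limma adjusted p = 0.00725). MCM3 read 37.8, 57.2 and 39.4 in cerebellum, against 96.5, 105 and 143 in liver (-1.09 ± 0.21, limma adjusted p = 0.00245). Neither gene overlapped between tissues, although their proteins belong to the same ring. MCM2, MCM4 and MCM5 were not called, with differences of 0.26, 0.15 and -0.67. MCM5 had the widest interval of the 3 genes, from -1.36 to 0.03, and passed without liver replicate 1 (-0.99, limma adjusted p = 0.0109).

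Among genes that act beside the helicase, MCM8, which forms a separate helicase with MCM9 in DNA repair, was at 69.4 ± 6.59 in cerebellum and 18.1 ± 3.60 in liver (1.31 ± 0.17, limma adjusted p = 2.67e-04). Its partner MCM9 was not called, at 58.5 ± 6.58 in cerebellum and 78.7 ± 9.78 in liver. CDC7, the kinase that fires loaded origins, read 156, 184 and 153 in cerebellum, against 16.1, 41.8 and 85.2 in liver. The cerebellum readings were close together and the livers were widely spread, with replicate 1 lowest, and the difference was 1.63 ± 0.36 (limma, adjusted p = 0.00553). CDC6, which loads the helicase, and CDC45, which activates it, were at 23.3 ± 6.62 and 26.5 ± 4.40 in cerebellum and 31.0 ± 5.96 and 42.3 ± 14.8 in liver, and were not called. MCM10, an initiation factor, was not called either (-0.33, interval -0.93 to 0.27).

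**Figure D3:**
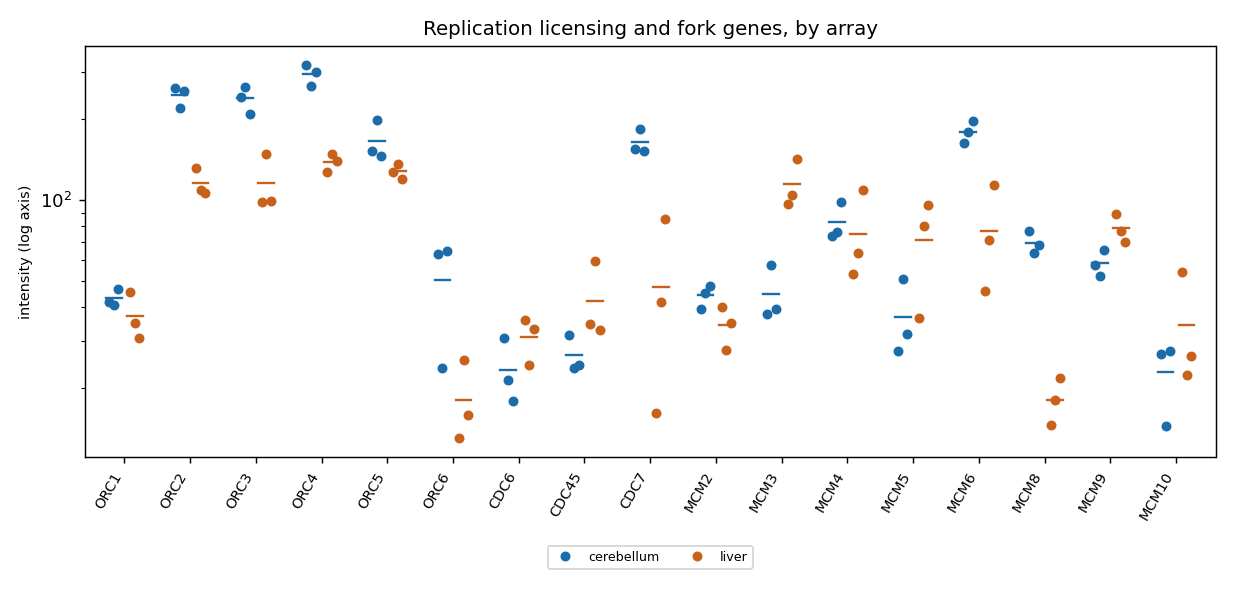
Intensities of 17 replication licensing and fork genes are shown on a log axis, with a point per array, blue for cerebellum and orange for liver, and a bar at the mean of 3. ORC2, ORC3, ORC4, CDC7, MCM6 and MCM8 lie apart with cerebellum on top, MCM3 lies apart with liver on top, and most of the rest overlap.

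Of the 7 E2F factors, which turn replication genes on or off, 0 were higher in cerebellum, 1 was higher in liver and 6 were not called. E2F3, an activating member, read 10.01, 24.0 and 14.0 in cerebellum, against 51.4, 52.7 and 121 in liver (-1.43 ± 0.30, limma adjusted p = 0.00434). Liver replicate 3 was the highest and the only reading above the guide levels for silent genes, since 51.4 and 52.7 lay just under 52.8. E2F1 and E2F2, the other activators, were at 63.7 ± 15.8 and 47.9 ± 9.93 in cerebellum and 65.1 ± 10.8 and 48.0 ± 5.65 in liver, with intervals of -0.51 to 0.44 and -0.43 to 0.41. E2F4 and E2F5, which repress in resting cells, and E2F7 and E2F8, the atypical repressors, had differences from -0.25 to 0.02 and were not called.

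Of the 108 genes, 16 (14.8%) had all 6 readings at or below the 90th percentiles of genes of the other tissue, a share close to the 13.2% of all features. Several genes of dividing cells were among them, including CDK1, CCNB2, CDC20, AURKA, BUB1, MKI67, CDC25A, CDC25C and PLK4. MKI67, the Ki-67 antigen of proliferating nuclei, read 3.65, 3.26 and -0.17 in cerebellum, against 4.11, 13.4 and 39.2 in liver. It was not called (-0.79 ± 0.33, limma adjusted p = 0.0781), but passed without liver replicate 1, at -1.11 (adjusted p = 0.0148). CDK1, the kinase of mitotic entry, read 0.89, 7.85 and 6.83 in cerebellum and 4.09, 19.1 and 16.7 in liver and was not called (-0.43, interval -1.0039 to 0.14). It too passed without liver replicate 1 (-0.67, adjusted p = 0.0329). At such levels the pseudocount of 16.8 sets most of each log2 value and shrinks the differences between readings. The readings themselves cannot be told apart from background here, so the size of any difference in RNA is not known.

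The mitotic cyclins were called once in 6 genes of the S, G2 and M group. CCNB1, cyclin B1, read 57.3, 66.6 and 73.9 in cerebellum and 24.6, 18.1 and 44.5 in liver (0.89 ± 0.23, limma adjusted p = 0.0124), a call that was lost without cerebellum replicate 3 (0.82, adjusted p = 0.0535). CCNB2, cyclin B2, lay at 15.3 ± 2.25 in cerebellum and 17.4 ± 3.55 in liver. CCNA2, cyclin A2, had the widest cerebellum spread of these genes, at 174, 26.5 and 97.4, and read 20.1, 24.2 and 47.0 in liver. It was not called (1.10 ± 0.49, limma adjusted p = 0.0940), and without cerebellum replicate 2 the difference was 1.69 (adjusted p = 0.00482).

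Among mitotic kinases, checkpoint genes and phosphatases, 2 of 18 genes were higher in cerebellum, 4 were higher in liver and 12 were not called. CDC25B, a phosphatase that activates CDKs, read 718, 208 and 501 in cerebellum and 54.7, 69.8 and 68.6 in liver, a difference of 2.45 ± 0.39 (limma, adjusted p = 8.74e-04). Its relatives CDC25A and CDC25C were not called, at -0.21 and -0.29. CDC27, a core subunit of the anaphase-promoting complex, differed by 0.72 (limma, adjusted p = 0.0129), whereas the subunits CDC16 and CDC23 were not called, at -0.09 and -0.28.

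PLK2, a polo-like kinase induced by stress and activity and not by mitosis, read 12.9, 33.1 and 13.9 in cerebellum, against 107, 217 and 254 in liver. The difference was -2.48 ± 0.33 (limma, adjusted p = 3.28e-04). PLK1, the mitotic member, leaned the other way with no overlap, at 94.2, 34.1 and 62.8 in cerebellum and 28.3, 30.9 and 28.0 in liver, and narrowly missed the threshold (0.74 ± 0.27, limma adjusted p = 0.0503). It passed at a pseudocount of 11.1, with arrays aligned on general genes and without cerebellum replicate 2 (adjusted p = 0.0473, 0.0385 and 0.00570). PLK3, another stress-response member, averaged 51.1 ± 7.23 in cerebellum and 71.0 ± 29.2 in liver and was not called. AURKA and AURKB, the Aurora kinases of the spindle and of chromosome separation, had opposite differences of -0.59 and 0.72, and neither passed (limma, adjusted p = 0.0539 and 0.0672). Both passed without cerebellum replicate 2 (adjusted p = 0.0155 and 0.0339) and without liver replicate 1 (adjusted p = 0.0472 and 0.0166), and AURKA also with the replicate number as a block, a pseudocount of 11.1 or an intensity trend (adjusted p = 0.0366, 0.0434 and 0.0423). BUB1, a spindle checkpoint kinase, was called toward liver at 6.52 ± 0.25 in cerebellum and 23.1 ± 2.45 in liver (-0.77 ± 0.16, limma adjusted p = 0.00331), though all its readings were within the range of silent genes.

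The CDC14 phosphatases, which in yeast take a cell out of mitosis, were both higher in liver. CDC14B read 78.5, 49.3 and 40.7 in cerebellum and 308, 279 and 159 in liver (-1.85 ± 0.29, limma adjusted p = 7.80e-04). CDC14A was at 35.4 ± 14.5 in cerebellum and 75.0 ± 12.7 in liver (-0.84, limma adjusted p = 0.0140), and fell short when cerebellum replicate 1 or 3 was left out (adjusted p = 0.0578 and 0.0641).

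**Figure D4:**
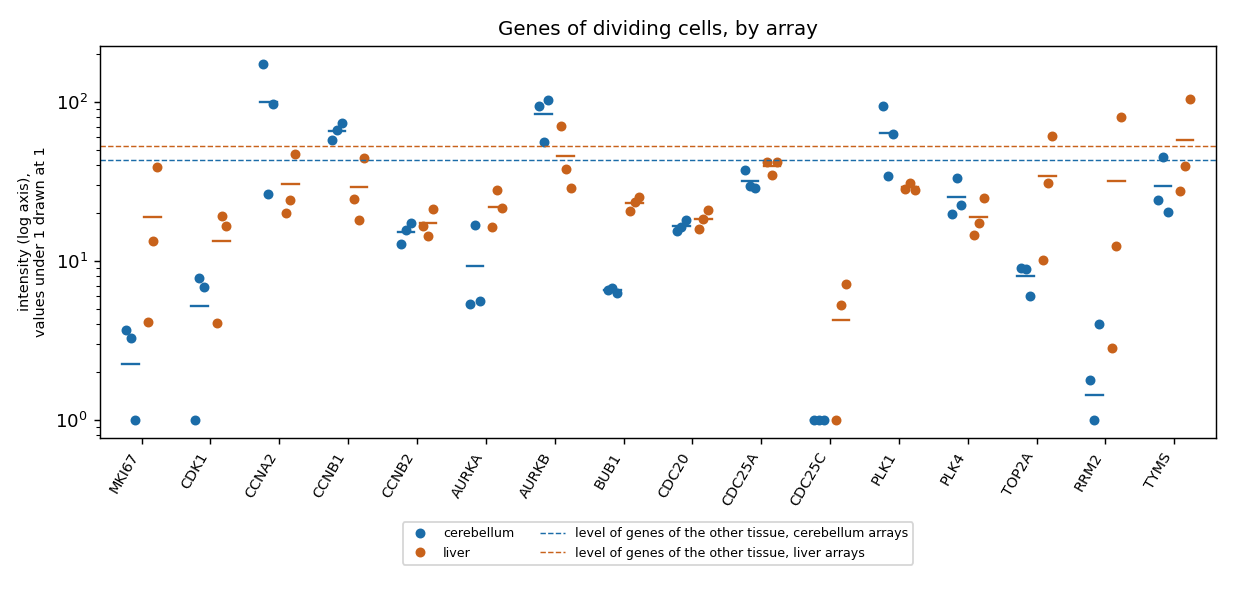
Intensities of 16 genes of dividing cells are drawn on a log axis, with a point per array, blue for cerebellum and orange for liver, a bar at the mean of 3, and readings under 1 placed at 1. Dashed lines mark 43.3 and 52.8, the 90th percentiles of genes of the other tissue on cerebellum and liver arrays. MKI67, TOP2A, RRM2 and TYMS, the last 3 picked after their values were seen, have their highest reading on liver replicate 3. The highest liver reading falls on replicate 2 for AURKA, CDK1 and PLK1 and on replicate 1 for AURKB and CDC25A. CCNA2 and PLK1 have low readings on cerebellum replicate 2.

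The livers differed among themselves. Replicate 3 held the highest of the 3 liver readings for 46 of the 108 genes (42.6%), against 34.5% of all features, and the lowest for 36. Replicate 1 held the lowest for 50 (46.3%), against 35.6% of all features. By role, the median shift of liver replicate 3 from the mean of the other livers, on the log2 scale, was 0.32 for the S, G2 and M group but -0.41 for the CDK inhibitors and -0.16 for CDK5 and the kinases of resting cells. Genes within these groups differed. Of the inhibitors, CDKN1A shifted by 1.75 and CDKN1C by 0.01, while CDKN1B, CDKN2A, CDKN2B and CDKN3 were below 0. In the S, G2 and M group only CCNA1 shifted below 0, at -0.24. Of the 6 genes in that group, 4 had every reading at or below the levels of silent genes. These shares and shifts are descriptions without a test. The proliferation genes RRM2, TOP2A and TYMS, picked after their values were seen, read 80.1, 61.2 and 105 on liver replicate 3, 12.4, 31.0 and 39.3 on replicate 2, and 2.83, 10.1 and 27.6 on replicate 1. Others of the same list did not follow: PTTG1, NEK2, TK1 and BIRC5 had their lowest liver reading, at 11.8, 8.49, 87.7 and 39.4, on replicate 3. Over the 85 cycle genes with other names, replicate 3 was the highest liver for 36 and the lowest for 26. Markers of other cells also read high on liver replicate 3. All 7 macrophage markers were highest there, with a summed intensity of 7085 against 4048 and 4073 in the other livers and 214 to 436 in cerebellum, and so were all 6 markers of stellate cells and fibroblasts, with 4126 against 1420 and 1343 and 221 to 605 in cerebellum. Red cell precursor markers summed to 742 there, beside 415 and 463, and HBB alone read 393, beside 107 and 202. TFRC read 268 there, beside 240 and 191. ALAS2 and EPB42 read under 52.8 on every liver array, at 45.3 and 34.3 on replicate 3, and EPB42 was highest on replicate 2, at 41.6. The summed lymphocyte and plasma cell markers did not stand out, at 1218 beside 1260 and 1057, but most of each sum was JCHAIN (730 beside 734 and 624). Of these 8 markers, 4 were highest on replicate 3 and 1 was lowest there. The lowest single marker reading in the macrophage and stellate lists was 1.35, for LUM in cerebellum, so no marker was listed at 0. The part of these cells in the liver readings was not tested.

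Cerebellum replicate 2 held the lowest cerebellum reading for 39 of the 108 genes (36.1%), against 40.3% of all features. It held the highest for 48 of them, and for 5936 of all 15143 features. It was the lowest cerebellum for CCNA2, PLK1, AURKB, ORC6 and CDC25B and the highest for CDK5R1, CDKN1B, CDKN2B, CCND2 and CCNG2, all noted after their values were seen. On that array 7 of 8 lymphocyte and plasma cell markers were the lowest of the 3 cerebellums, with a sum of 265 beside 356 and 401. MZB1 alone gave 133 of the 265, and CD2, CD3D, CD3E and JCHAIN read under 43.3 on every cerebellum array. All 5 endothelial markers were the highest on replicate 2, with 275 beside 107 and 88.6. Of these, KDR, CDH5 and TEK still read under 43.3 there, at 39.7, 33.7 and 32.8. The highest reading also fell on that array for 8 of 10 cerebellum tissue markers, for 5 of 7 macrophage and microglia markers (sum 436 beside 217 and 214) and for 4 of 6 stellate cell and fibroblast markers (605 beside 221 and 294). Their part in the readings was not tested.

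CDC42, which organises actin and cell polarity, was among the clearest calls of the 108 genes. It read 691, 524 and 617 in cerebellum, against 59.3, 58.1 and 71.3 in liver, a difference of 2.97 ± 0.18 (limma, adjusted p = 3.19e-06). The liver readings lay little above 52.8, the guide level for silent genes there, so the size of the difference is less certain than its direction. Of CDC42 and its 10 measured effectors and binding proteins, 2 were higher in cerebellum, 2 were higher in liver and 7 were not called. The kinase CDC42BPA (MRCK alpha) went with CDC42, at 791 ± 185 in cerebellum and 205 ± 30.3 in liver (1.85 ± 0.22, limma adjusted p = 1.84e-04). Its relative CDC42BPB had an interval from -0.11 to 0.62 and was not called. CDC42EP1, an effector of the BORG family, went against CDC42, at 16.8, 24.9 and 22.9 in cerebellum and 197, 207 and 330 in liver (-2.74 ± 0.23, limma adjusted p = 1.90e-05). CDC42EP3, of the same family, differed by -0.99 (limma, adjusted p = 0.0115), though it read above the guide levels only on liver replicate 3, at 95.6. CDC42EP2, CDC42EP4 and CDC42EP5 were not called.

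Of the 14 other genes with these names, 1 was higher in cerebellum, 2 were higher in liver and 11 were not called. CCNG2, cyclin G2, which is known for rising as cells leave the cycle, read 732, 1099 and 697 in cerebellum, against 99.4, 71.1 and 204 in liver (2.68 ± 0.34, limma adjusted p = 2.57e-04). CCNG1, cyclin G1, a target of p53, was at 89.8 ± 9.91 in cerebellum and 222 ± 94.3 in liver (-1.08 ± 0.31, limma adjusted p = 0.0185), so the paralogous G cyclins were called in opposite directions. The CCNG1 call did not hold when cerebellum replicate 3 or liver replicate 1 was left out (adjusted p = 0.0654 and 0.0576). CDK2AP2, related to a protein that binds CDK2, read 33.98 ± 1.88 in cerebellum and 179 ± 49.1 in liver (-1.92 ± 0.22, limma adjusted p = 1.36e-04), while its paralogue CDK2AP1 was not called, at 835 ± 207 and 701 ± 58.4.

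Genes of replication and division under other names were read in the same fit. Of 114 listed, 85 were measured, and 17 were higher in cerebellum, 11 were higher in liver and 57 were not called, a called share of 32.9% beside 50.6% of all features and a median of 0.03. With arrays aligned on general genes the split was 25 and 8, since that alignment raises the median log2 difference of all features by 0.15. The largest differences toward cerebellum were those of CCNI (cyclin I), RFC3 (a clamp loader subunit), RAD21 (a cohesin subunit) and RBL1 (p107, a relative of RB). CCNI was at 3275 ± 40.9 in cerebellum and 756 ± 137 in liver, a difference of 2.10 (limma, adjusted p = 2.45e-05). RFC3 differed by 2.10, RAD21 by 1.49 and RBL1 by 1.35 (limma, adjusted p = 4.85e-04, 1.13e-04 and 8.15e-04). The largest differences toward liver were those of POLE4, POLD3, POLD2 and POLD4, subunits of the replicative DNA polymerases. POLE4 was at 39.4 ± 20.8 in cerebellum and 278 ± 36.4 in liver (-2.47, limma adjusted p = 1.87e-04), and POLD3, POLD2 and POLD4 differed by -1.50, -1.18 and -0.91 (limma, adjusted p = 0.00555, 0.00106 and 0.00707). All 6 arrays parted by tissue for each of these 8 genes. Other polymerase subunits, named after their values were seen, did not share that direction: POLA2 was higher in cerebellum (0.69, limma adjusted p = 0.0199), and POLE3, POLD1, POLE2 and POLE were not called, with differences of 0.58, 0.09, 0.03 and -0.11.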

How the data were processed

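Values were the authors' deposited intensities, 1 per array for each of 15143 features. Per the labels' protocols, RNA was TRIzol-extracted, depleted of ribosomal RNA and labelled as biotinylated sense-strand DNA, and GCOS is named in the submitters' processing notes. The background method and probe summary are, of the sources used here, stated in none. The 6 columns hold identical sorted values (0 positions differ), so the arrays had been quantile normalized, and 93 values per array lay below 0, so background had been subtracted. Total signal therefore cannot be compared between tissues. Precision is limited by the 3 arrays per tissue, and mismatches between human probes and chimpanzee sequence can alter readings, which was not tested.

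Symbols came from the platform annotation. No member shared its symbol with another feature. Values below 0 were set to 0, and log2(intensity + 16.8) was taken, the constant being the 10th percentile of all values. Tissues were compared with limma 3.58.1 in R 4.3.3 by a two-sided moderated test (lmFit, eBayes) without a block or filter, adjusting over all 15143 features. The test was first tried on simulated data. With 3 arrays a tissue the smallest two-sided permutation p is 0.1, so none is given.

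The members and lists were chosen with earlier results of these data known. Named genes were a fixed core of cycle genes, and in each role group up to 4 called members in each direction with the largest differences and no overlap, and likewise for the other cycle genes. Members given beyond that rule (such as CDKN2B, CDKL3, CDK17, MCM9 and CDC16) were named to complete a family after their values were seen. The 16 alternatives were a replicate block, other pseudocounts (11.1 and 30.3), a floor, renewed quantile normalization, alignment on 77 general genes, a filter on dim features (mean under 53.4), a variance trend, treat, averaging of features, and leaving out each array.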

Additional observations from a re-analysis of the deposited data

How the results depend on the processing

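Averaging of features and renewed quantile normalization leave the members' values as they are, and under the other 14 alternatives no member had calls in opposite directions. Of the 41 called genes, 17 kept their call in all alternatives that tested them, 19 lost it only under treat and 5 (CCNB1, CCNG1, CDC14A, CDKN2A and ORC6) also elsewhere. Under treat 9 members were higher in cerebellum and 8 in liver, in place of 25 and 16, and 3 and 1 of the other cycle genes, in place of 17 and 11. Treat sets a stricter null by construction. Without dim features, which leaves 75 members, 7 other cycle genes were higher in liver. Leaving out 1 array gave 23 to 29 members higher in cerebellum and 13 to 21 higher in liver, 16 to 19 and 9 to 14 at 2-fold, and 10 to 19 and 7 to 13 other cycle genes, whose lowest counts were both without cerebellum replicate 3. The number of arrays and the small margin of dim genes over background limit all of these counts.

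With the replicate number as a replicate block, 25 members were higher in cerebellum and 18 in liver, with 2 calls gained (AURKA and CDKN2B) and 0 lost. Deviations of equally numbered arrays correlated at 0.11, 0.16 and -0.14, and only the arrays of replicate 2 both correlated best with their own number. Equally numbered arrays also share the labelled age and sex, and the labels do not state whether they come from 1 animal.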

Other observations

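The median range between the highest and lowest array of a tissue was 0.39 in cerebellum and 0.47 in liver on the log2 scale, beside 0.37 and 0.49 for all features, and 47 of the 108 genes (43.5%) were wider in cerebellum, beside 37.6% of all features. A range of at least 1 was reached by 8 genes in cerebellum (7.41%) and 11 in liver (10.2%), beside 5.29% and 12.9% of all features.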
